A study of Mus musculus with 6 samples.

Results

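The S100 genes described here are S100a1, S100a4, S100a6, S100a8, S100a10, S100a11, S100a13, S100a14 and S100a16, which are 9 of the 24454 genes in the expression table. They were chosen by gene name, with their levels in all 3 groups already known, so the values of these 9 genes in every comparison below are a description and carry no test. The cells are MTflEcad, epithelial cells from a tumour that arose in the mammary gland of the MMTV-Neu strain, where a mouse mammary tumour virus promoter drives the Neu oncogene. I80 cells received 80 µM H2O2 and DI150 cells 150 µM H2O2 every day for 7 months, and PBS cells are the untreated control. All 3 groups share the MMTV-Neu strain and the MTflEcad parent. Each group holds 2 RNA-seq libraries. Each dose is represented by a single named group, so effects of dose and of the individual line cannot be told apart. The labels do not say how many independent cultures were carried through the treatment.

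S100 proteins are small calcium-binding proteins built from a pair of EF-hand loops. Most form dimers, open a binding surface when calcium enters the loops, and then attach to targets such as annexins, myosin or enzymes. Some members also leave the cell and act on receptors such as RAGE and Toll-like receptor 4. In mammary tumours S100A4 is best known for its association with motility and metastasis, and S100A8 with neutrophils and inflammation. Most S100 genes lie side by side in a cluster known in mouse on chromosome 3.

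RefSeq promoter sequences on GRCm38.p6, the build also called mm10, were found for 7 of the 9 genes. Each window runs 5′ to 3′ on the gene's own strand from 250 bases before the start of the transcript to 50 bases after it. S100a4 and S100a16, both far lower in I80 and DI150 cells than in PBS cells, are set beside S100a8, which had few reads in every group. They are also set beside 3 genes that stayed well expressed, S100a6, S100a1 and S100a11. Capitals mark matches, on either strand, to TATAAA (the TATA box), TGANTCA or TGACNNNGC (the core of the antioxidant response element). TGANTCA is a loose form of the AP-1 site, with any base in the middle. No marked matches overlap each other.
S100a4 (chr3:90603520-90603819, plus strand): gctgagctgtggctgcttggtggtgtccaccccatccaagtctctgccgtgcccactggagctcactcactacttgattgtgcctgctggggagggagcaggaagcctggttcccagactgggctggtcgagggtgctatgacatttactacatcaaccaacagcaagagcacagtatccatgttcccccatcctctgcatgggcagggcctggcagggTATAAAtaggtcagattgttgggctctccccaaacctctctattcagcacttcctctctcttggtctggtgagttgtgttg
S100a16 (chr3:90537004-90537303, plus strand): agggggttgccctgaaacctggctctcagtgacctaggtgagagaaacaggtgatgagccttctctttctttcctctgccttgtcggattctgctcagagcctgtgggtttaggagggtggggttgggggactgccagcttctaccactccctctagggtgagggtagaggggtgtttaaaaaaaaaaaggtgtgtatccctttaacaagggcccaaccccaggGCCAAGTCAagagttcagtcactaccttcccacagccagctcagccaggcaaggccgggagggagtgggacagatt
S100a8 (chr3:90668821-90669120, plus strand): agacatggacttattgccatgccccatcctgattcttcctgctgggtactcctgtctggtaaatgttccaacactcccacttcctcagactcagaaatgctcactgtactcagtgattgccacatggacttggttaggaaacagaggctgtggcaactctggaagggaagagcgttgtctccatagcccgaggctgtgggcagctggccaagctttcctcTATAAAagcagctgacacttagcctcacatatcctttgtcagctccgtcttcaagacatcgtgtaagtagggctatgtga
S100a6 (chr3:90612644-90612943, plus strand): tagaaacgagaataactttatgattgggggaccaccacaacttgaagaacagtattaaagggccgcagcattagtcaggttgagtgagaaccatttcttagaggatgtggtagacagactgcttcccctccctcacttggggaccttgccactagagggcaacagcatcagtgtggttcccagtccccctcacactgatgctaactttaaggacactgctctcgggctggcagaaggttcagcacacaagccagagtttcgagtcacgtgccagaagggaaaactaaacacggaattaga
S100a1 (chr3:90514281-90514580, minus strand): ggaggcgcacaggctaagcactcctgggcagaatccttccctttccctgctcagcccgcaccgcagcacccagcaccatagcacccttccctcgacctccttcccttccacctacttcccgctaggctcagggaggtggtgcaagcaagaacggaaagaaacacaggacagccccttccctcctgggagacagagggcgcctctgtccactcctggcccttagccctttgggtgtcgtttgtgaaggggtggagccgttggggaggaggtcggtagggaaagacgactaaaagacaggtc
S100a11 (chr3:93520246-93520545, plus strand): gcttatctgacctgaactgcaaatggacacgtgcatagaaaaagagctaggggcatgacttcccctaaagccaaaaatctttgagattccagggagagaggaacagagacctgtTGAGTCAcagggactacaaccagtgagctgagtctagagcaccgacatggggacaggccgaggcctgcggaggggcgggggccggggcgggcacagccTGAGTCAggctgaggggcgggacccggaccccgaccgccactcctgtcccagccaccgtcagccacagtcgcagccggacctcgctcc

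TATAAA stood 31 bases before the start of S100a4 and 30 bases before that of S100a8. TATAAA occurred in 13.6% of the 32817 RefSeq mouse promoter windows of this length. S100a16 held a response element core on the reverse strand, 26 bases before its start, a match present in 12.4% of all windows. A further annotated start of S100a16 had a match to the loose AP-1 form, TGAATCA, in place of that core. S100a11 held 2 AP-1 matches, 136 and 38 bases before its start, and 7.81% of all windows hold at least 1. S100a6, S100a1 and S100a13 had no match to these motifs.

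The windows also differed in CG dinucleotides, whose median count over all windows is 7. S100a4 and the S100a16 window shown had 2 each, a count that 85.9% of windows reach or pass. S100a8 had 4 and S100a6 had 6. S100a1 had 11, S100a13 had 14 and S100a11 had 15, and 34.6% of windows hold at least 15. S100a1 and S100a13 start 105 bases apart on opposite strands, and their windows share 204 bases. These matches and counts describe the letters of the windows, and no binding or methylation was measured.

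The 6 libraries held 21017849 to 26608715 reads assigned to genes, so that 1 read was worth 0.0376 to 0.0476 CPM (reads of a gene per 1000000 assigned reads). Epcam, Cdh1, Krt8 and Krt18 marked all 6 libraries as epithelial, with Epcam at 716 and 647.5 CPM in I80, 1109 and 1002 CPM in DI150, and 583.2 and 628.6 CPM in PBS. The summed level of 10 epithelial markers was 3772 to 3783 CPM in I80 and 3551 to 3901 CPM in DI150, against 9703 to 9994 CPM in PBS. Of these markers 8 fell in each line, and Krt19 was at 0 in all 4 libraries of treated lines. The summed level of 7 basal markers was at most 1.98 CPM in I80 and 0.687 CPM in DI150, against 1715 to 1760.3 CPM in PBS. Krt14 gave most of that PBS sum. The 10 fibroblast markers summed to 22.7 to 25.6 CPM in every library, and the 5 endothelial markers to at most 0.824 CPM. Single fibroblast markers did change, and of 3 tested, 2 were called higher and 1 lower in each line against PBS. Col1a2 had a log2 fold change of -4.98 in both lines, and Pdgfra had 1.41 in I80 and 1.73 in DI150.

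As a family the 9 genes gave 1491 and 1492 CPM in I80 and 2585 and 2269 CPM in DI150, against 3229.7 and 3299 CPM in PBS. Their summed level was thus 0.457 of that in PBS in I80 and 0.743 in DI150, and no libraries of different groups overlapped. S100a6 was the most read member in all 6 libraries, with 45.5% of the sum in each I80 library, 42.9% and 42.0% in DI150, and 48.9% and 49.1% in PBS. S100a4 made up 0.385% and 0.486% of the sum in I80 and 0.212% and 0.266% in DI150, against 18.8% and 18.7% in PBS. The share of S100a10 was 33.1% and 32.9% in I80 and 36.2% and 37.0% in DI150, against 15.4% and 14.1% in PBS. The treated lines thus lost S100a4 as a major member, and S100a6, S100a10 and S100a11 gave most of what was left.

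**Figure D1:**
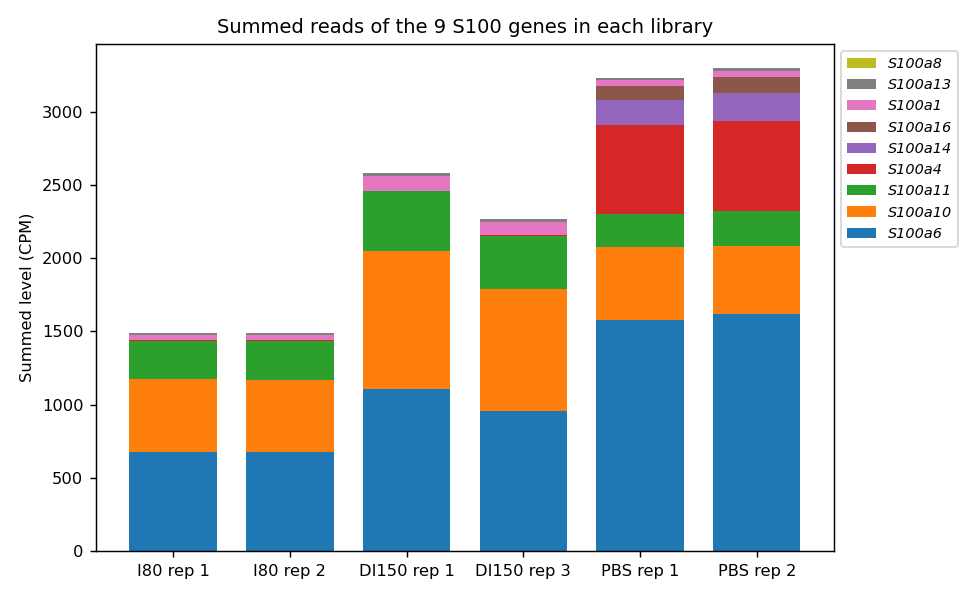
Summed level of the 9 S100 genes in each library, in CPM on a linear axis from 0, with 1 bar per library and 1 colour per gene. The bars reach about 1491 CPM in I80, 2269 to 2585 CPM in DI150 and 3229.7 to 3299 CPM in PBS, and the red S100a4 band is wide in the PBS bars and a thin line or not visible in the others.

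A fit with limma over the 11428 genes averaging 1 CPM or more set the calls, at an adjusted p under 0.05. It tested 8 of the 9 genes, since S100a8 averaged 0.765 CPM. In I80 against PBS, 0 of the 8 were called higher and 4 lower (S100a4, S100a6, S100a14 and S100a16), beside 32.3% of all tested genes called higher and 34.2% called lower. In DI150 against PBS, 4 were called higher (S100a1, S100a10, S100a11 and S100a13) and the same 4 lower, beside 32.7% and 36.1% of all tested genes. In DI150 against I80, 5 were called higher and 1 lower, beside 21.9% of all tested genes in either direction. The median log2 fold change of the 8 genes was -0.73 in I80 against PBS, 0.011 in DI150 against PBS and 0.57 in DI150 against I80, where all tested genes had medians of -0.0020, -0.032 and 0. Both comparisons with PBS use the same PBS libraries. Since the genes were selected on these values, nothing is read from the counts.

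**Figure D2:**
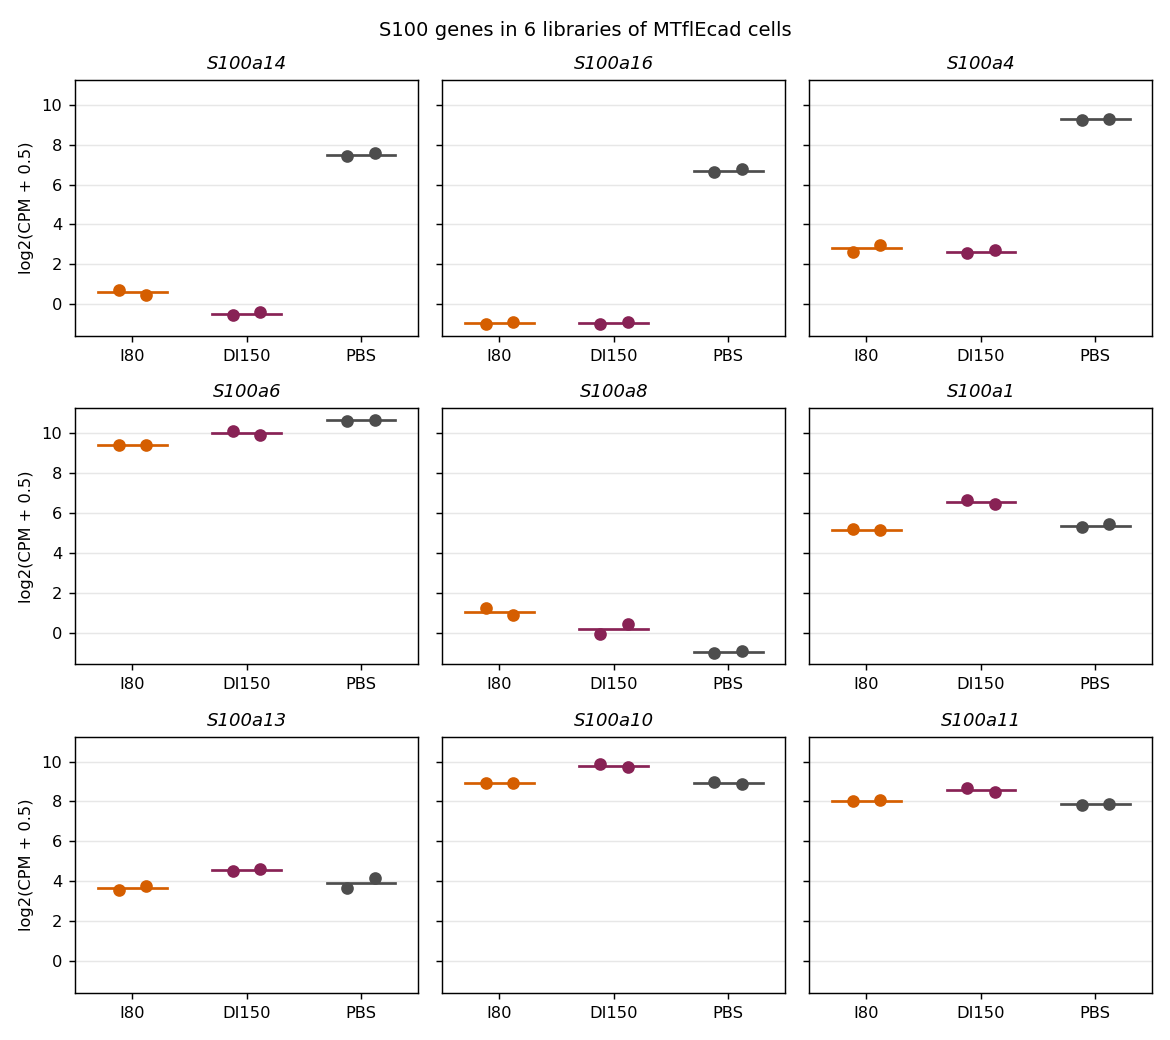
Level of each S100 gene as log2(CPM + 0.5), 1 point per library and a line at the mean of the 2 libraries of a group. S100a14, S100a16 and S100a4 sit at least 6 log2 units lower in I80 and DI150 than in PBS, while S100a1, S100a13, S100a10 and S100a11 are highest in DI150.

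S100a16, S100a14 and S100a4 were well expressed in PBS cells and far lower in the treated lines. S100a16 and S100a14 had few reads or almost none there, while S100a4 kept 115 to 176 reads in each library. S100a16 encodes a widely expressed S100 protein that promotes fat cell differentiation in mouse cells. It had 0 and 1 reads in the I80 libraries and 0 and 1 reads in the DI150 libraries, against 2572 and 2722 reads in PBS. In CPM the levels were 0 and 0.0412 in I80, 0 and 0.0382 in DI150, and 96.7 and 110.1 in PBS. All 4 treated libraries were below the level that 3 reads would give (0.114 to 0.143 CPM), and no PBS library overlapped them. The ratio of pooled reads, scaled to library size, was 5145 for PBS over I80 (exact 95% interval 923 to 203243) and 4870 for PBS over DI150 (873.6 to 192377). These intervals cover counting error only.

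S100a14 encodes an S100 protein found mainly in epithelia, and the gene lies next to S100a16. It had 1.17 and 0.907 CPM in I80 and 0.190 and 0.267 CPM in DI150, against 170.7 and 190.3 CPM in PBS. The 3 groups did not overlap, with DI150 lowest. Its mean was 173.8-fold lower in I80 than in PBS and 789.3-fold lower in DI150 than in PBS, with log2 fold changes of -6.88 and -7.96 (SE 0.15 each). Only 30 and 22 reads in I80 and 4 and 7 reads in DI150 stand behind these levels, so the pooled read ratio of PBS over DI150 has an exact 95% interval of 432.1 to 1550. In these bulk libraries a smaller share of cells with the transcript and less transcript per cell cannot be told apart.

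S100a4, also called metastasin, encodes a binding protein of nonmuscle myosin IIA that is known as a mesenchymal marker. Its levels were 5.74 and 7.25 CPM in I80 and 5.47 and 6.03 CPM in DI150, against 607.2 and 617.6 CPM in PBS. The treated lines overlapped each other, and each lay far below PBS. Means were 94.3-fold lower in I80 and 106.5-fold lower in DI150 than in PBS, with log2 fold changes of -6.46 and -6.62 (SE 0.12 each). The level of S100a4 moved with the basal keratin Krt14, which had 0.273 and 0.701 CPM in I80 and 0.0476 and 0.0763 CPM in DI150, against 1728 and 1674 CPM in PBS, and with the basal marker sums given above. Krt14 made up most of those basal sums in PBS, and only 2 of the 7 basal markers passed the 1 CPM filter. S100a14 and S100a16 also fell beside Krt14, so this was not particular to S100a4. The part of basal-like cells in these results was not tested. Of the 81-base windows of the S100a4 transcripts, 53.1% also occur in an overlapping gene model at the same locus, so some reads may have been assigned elsewhere and its level is uncertain.

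S100a16, S100a14 and S100a4 were each called lower and at least 16-fold lower in both lines, beside 3.19% of all tested genes in I80 and 3.52% in DI150.

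S100a6, or calcyclin, is a protein of growing cells that binds CacyBP and annexin A11. It was reduced, not lost, with 678 and 678.4 CPM in I80 and 1109 and 953.5 CPM in DI150, against 1580.2 and 1619 CPM in PBS. The groups did not overlap, and the order of levels was I80, then DI150, then PBS. S100a6 fell 2.36-fold in I80 (log2 fold change -1.24 ± 0.09 SE) and 1.55-fold in DI150 (-0.64 ± 0.09 SE), and it was 1.52-fold higher in DI150 than in I80. Per kilobase of spliced transcript it averaged 927.8 CPM in I80, 1411 CPM in DI150 and 2189 CPM in PBS, the highest of the 9 genes in each group.

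S100a10 and S100a11 pair with annexins. S100A10, or p11, has lost the ability to bind calcium and joins annexin A2 in a complex at the plasma membrane that also serves as a plasminogen receptor. S100a10 had 493.3 and 490.3 CPM in I80 and 936.6 and 838.7 CPM in DI150, against 497.7 and 465.4 CPM in PBS. Both I80 libraries lay between the 2 PBS libraries, and both DI150 libraries lay above all others. S100a10 rose 1.84-fold in DI150 over PBS (log2 fold change 0.88 ± 0.08 SE), while the ratio of I80 to PBS was 1.02 and was not called.

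S100A11, or calgizzarin, binds annexin A1. S100a11 had 263 and 265.6 CPM in I80 and 409.9 and 358.2 CPM in DI150, against 226.7 and 235.2 CPM in PBS. The groups did not overlap, and the order was PBS, then I80, then DI150. S100a11 rose 1.66-fold in DI150 over PBS (log2 fold change 0.73 ± 0.08 SE). The ratio of I80 to PBS was 1.14 (log2 fold change 0.19 ± 0.08 SE), which was not called, and the call appeared when the DI150 libraries were left out of the fit, singly or together. The transcript shares 36.9% of its 81-base windows with 2 annotated processed pseudogenes, so its level is uncertain where such reads were dropped or split.

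S100a1 and S100a13 share the divergent promoter region shown above for S100a1. S100A1 is best known from heart and skeletal muscle, where it binds the ryanodine receptor. S100a1 had 36.3 and 34.6 CPM in I80 and 100.06 and 87.2 CPM in DI150, against 38.3 and 43.3 CPM in PBS. DI150 stood clear of both other groups, and I80 lay just under PBS. S100a1 rose 2.29-fold in DI150 over PBS (log2 fold change 1.19 ± 0.10 SE), the largest rise among the 8 tested genes, while I80 had 0.868 of the PBS level and was not called.

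S100A13 takes part in the release of FGF1, a growth factor without a signal peptide. S100a13 had 11.4 and 13.4 CPM in I80 and 22.8 and 23.7 CPM in DI150, against 12.3 and 17.3 CPM in PBS. The I80 and PBS libraries overlapped, and both DI150 libraries were above them. S100a13 rose 1.58-fold in DI150 over PBS (log2 fold change 0.66 ± 0.17 SE), a call lost without DI150 replicate 3. Its ratio of I80 to PBS was 0.840 and was not called, and it was called lower without PBS replicate 1. The pair thus had its highest levels in the same line, with DI150 to I80 ratios of 2.64 for S100a1 and 1.88 for S100a13. This was not particular to the pair, since S100a10 and S100a11 were also highest in DI150. Their annotated spans overlap by 98 bases on opposite strands, and whether strand was used in counting is not given in the sources used here, so reads of that overlap cannot be assigned to either gene with certainty.

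S100a8 encodes a subunit of calprotectin, the calcium- and zinc-binding protein of neutrophils. It had 47 and 33 reads in I80 and 10 and 23 reads in DI150, against 0 and 1 reads in PBS, which is 1.83 and 1.36 CPM in I80, 0.476 and 0.878 CPM in DI150, and 0 and 0.0404 CPM in PBS. The groups did not overlap, with I80 highest, and levels were low throughout. The scaled ratio of pooled reads was 82.3 for I80 over PBS (exact 95% interval 14.4 to 3292) and 35.9 for DI150 over PBS (6.01 to 1459). S100a9, whose protein forms calprotectin with S100A8, had 0 reads in all 6 libraries. The neutrophil genes Mpo, Elane, Ngp, Camp and Csf3r were at 0 in every library as well. The summed level of 13 myeloid markers was 9.88 and 17.6 CPM in PBS. In I80 it was 2.11 and 2.27 CPM, and in DI150 1.95 and 2.18 CPM. Most of the PBS sum was Csf1r, at 7.67 and 14.5 CPM there and at 0 in the treated lines. Which cells the S100a8 reads came from was not tested.

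The 9 genes lie on chromosome 3 of GRCm38, and their changes followed their place in the cluster only in part. S100a1 (90511034 to 90514330) and S100a13 (90514233 to 90524581) stand at one end and kept or raised their level. S100a14 (90526849 to 90528837) starts 2267 bases after the end of S100a13, and S100a16 (90537254 to 90543151) and S100a4 (90603770 to 90606045) follow. These 3 genes, the most reduced of the 9, lie within 79.2 kb. S100a6 (90612894 to 90614414), only 6848 bases beyond S100a4, kept a large part of its level, and S100a8 (90669071 to 90670034) was higher than in PBS. S100a11 (93520496 to 93526288) and S100a10 (93555117 to 93564645) lie apart from the rest, after a gap of 2850 kb.

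The span that runs over all 9 S100 genes, gap included, was widened by 500 kb at each end. Of 89 other genes of the table in it, 33 had no read in any library and 20 were tested. In I80 against PBS, 0 were called higher and 11 lower, beside 32.3% and 34.2% of all tested genes. The median log2 fold change was -0.32. In DI150 against PBS, 5 were called higher and 7 lower, beside 32.7% and 36.1% of all tested genes, with a median of 0.051. Among those averaging 5 CPM or more, the largest falls in I80 were those of Slc39a1, a zinc transporter (log2 fold change -0.82, limma adjusted p = 0.000175), Ilf2 (-0.66, limma adjusted p = 0.000355) and Chtop (-0.49, limma adjusted p = 0.00138). In DI150 Ilf2 (-0.51, limma adjusted p = 0.00134), Ints3 (-0.38, limma adjusted p = 0.0025) and Tpm3 (-0.28, limma adjusted p = 0.0129) fell, and the CREB coactivator gene Crtc2 (0.42, limma adjusted p = 0.00268) and Gatad2b (0.25, limma adjusted p = 0.0228) rose. The calls of Tpm3 and Gatad2b were lost under 3 and 6 other settings. The lowest of the 20 was S100a3, which lies between S100a16 and S100a4. Pglyrp3, in the gap before S100a11, also fell in I80 (-2.28, limma adjusted p = 5.53e-05) and in DI150 (-2.38, limma adjusted p = 4.19e-05).

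**Figure D3:**
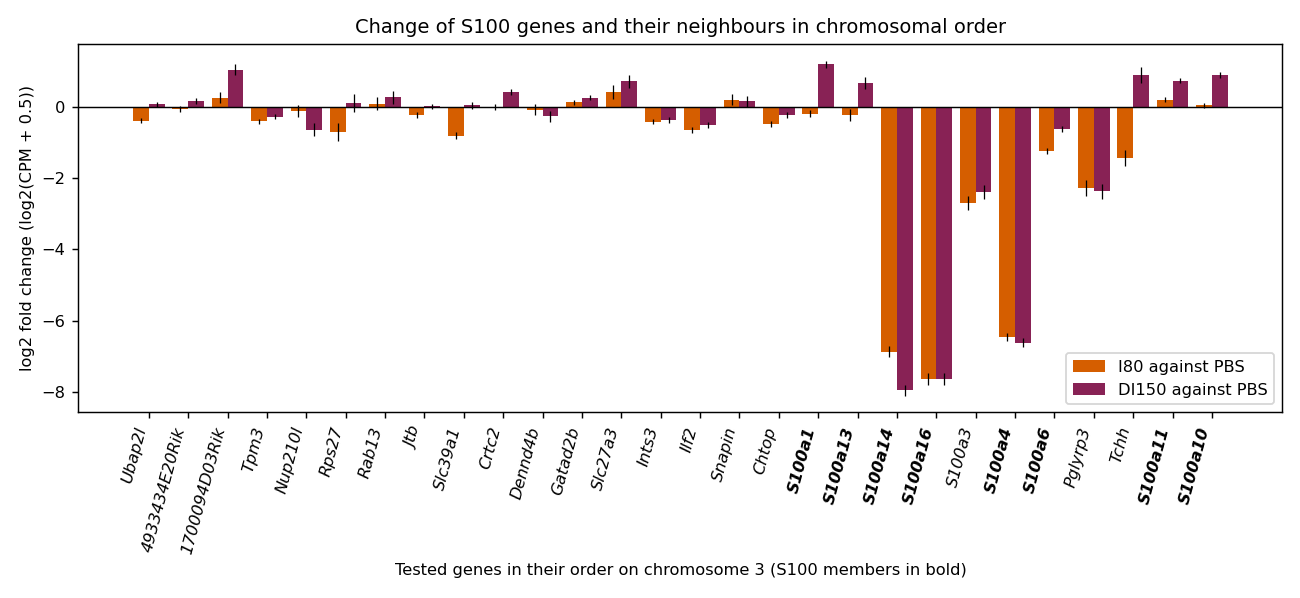
Log2 fold change of I80 and of DI150 against PBS for each tested gene in the span of the S100 genes and 500 kb beyond its ends, in chromosomal order and not to scale in distance, with the SE as a bar and S100 genes of the set in bold. S100a14, S100a16, S100a3 and S100a4 form the only run of neighbours below -2 in both lines, followed by S100a6 at -1.24 and -0.64. Pglyrp3, within the gap before S100a11, is also below -2 in both lines. Tchh, tested in the same gap, is at -1.45 in I80 and 0.90 in DI150.

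S100a3, Pglyrp3 and Tchh were named after their values were seen. Their means of 3.32, 1.12 and 2.51 CPM were under the level set for naming genes. S100a3 had 0.741 and 0.866 CPM in I80 and 1.19 and 1.03 CPM in DI150, against 6.95 and 9.14 CPM in PBS. S100a3 fell in I80 (log2 fold change -2.70, limma adjusted p = 1.09e-05) and in DI150 (-2.40, limma adjusted p = 1.9e-05), and no PBS library overlapped the treated ones. Of the list of other S100 genes, which also holds S100pbp, 10 of 12 were in the table and 2 were tested. The other tested gene was S100pbp, which encodes a binding protein of S100P and is not itself an S100 gene. It had 11.2 and 10.2 CPM in I80 and 11.9 and 12.4 CPM in DI150, against 12.8 and 15.7 CPM in PBS. It was called lower in I80 (log2 fold change -0.40, limma adjusted p = 0.0308) and was not called in DI150 (-0.21, limma adjusted p = 0.188), and the call in I80 was lost under 9 other settings (limma adjusted p from 0.0546 to 0.168). S100a2, which lies within the annotated span of S100a3, was at most 0.229 CPM in any library.

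Of 18 tested intracellular and channel partners of S100 proteins, 2 were called higher and 13 lower in I80 (median log2 fold change -0.44). In DI150, 3 were called higher and 13 lower (median -0.92). For this list and those below, the shares over all tested genes were 32.3% higher and 34.2% lower in I80. In DI150 these shares were 32.7% and 36.1%. Anxa2, the partner of S100a10, had 490.1 and 482.5 CPM in I80 and 298.2 and 267.8 CPM in DI150, against 1925 and 1931 CPM in PBS. With an SE of 0.07 each, the log2 fold changes were -1.99 in I80 (limma adjusted p = 4.65e-07) and -2.77 in DI150 (limma adjusted p = 8.87e-08), both called lower. The ratio of S100a10 to Anxa2 CPM was 1.01 and 1.02 in I80 and 3.14 and 3.13 in DI150, against 0.258 and 0.241 in PBS. The ratio was thus lowest in PBS and highest in DI150, with no overlap between groups. Ahnak, a giant scaffold protein bound by that complex, had 2709 and 2184 CPM in I80 and 1399 and 1118 CPM in DI150, against 3361 and 3098 CPM in PBS. It fell in DI150 (log2 fold change -1.37, limma adjusted p = 9.08e-05), and its call in I80 (-0.41, limma adjusted p = 0.0363) was lost under 4 other settings.

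Anxa1, which binds S100A11, had 654.4 and 692.3 CPM in I80 and 521.3 and 459.6 CPM in DI150, against 2191 and 2437 CPM in PBS. It fell in I80 (log2 fold change -1.78, limma adjusted p = 2.34e-06) and in DI150 (-2.24, limma adjusted p = 6.71e-07). The ratio of S100a11 to Anxa1 CPM was 0.402 and 0.384 in I80 and 0.786 and 0.779 in DI150, against 0.103 and 0.0965 in PBS. Anxa11, an annexin that binds S100A6, fell in I80 (21.9 and 22.8 CPM, against 45.3 and 48.9 CPM in PBS; log2 fold change -1.06, limma adjusted p = 2.28e-05). In DI150 Anxa11 had 42.4 and 41.1 CPM and was not called (log2 fold change -0.17, limma adjusted p = 0.104). Cacybp, whose protein links S100A6 to a ubiquitin ligase, fell in I80 (-0.70, limma adjusted p = 0.00176) and in DI150 (-0.98, limma adjusted p = 0.000296).

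**Figure D4:**
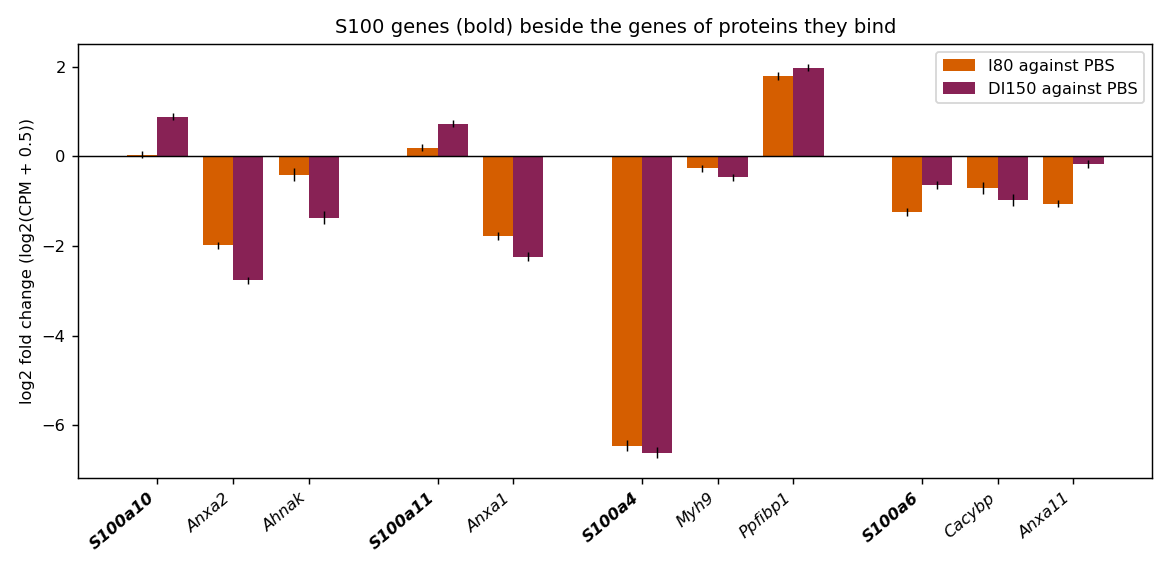
Log2 fold change of I80 and of DI150 against PBS for 4 S100 genes (bold) and the genes of proteins they bind, with the SE as a bar. S100a10 and S100a11 are at 0.03 and 0.19 in I80 and at 0.88 and 0.73 in DI150, while their annexin partners Anxa2 and Anxa1 lie between -1.78 and -2.77.

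S100A4 is paired here with Myh9 and Ppfibp1. Myh9, the heavy chain of nonmuscle myosin IIA, had 1689 and 1722 CPM in I80 and 1477 and 1485 CPM in DI150, against 2068 and 2031 CPM in PBS. It fell in DI150 (log2 fold change -0.47, limma adjusted p = 0.000938), and its call in I80 (-0.26, limma adjusted p = 0.0157) was lost under 4 other settings. Ppfibp1, or liprin beta 1, rose to 870.1 and 861.1 CPM in I80 and to 955.5 and 1019 CPM in DI150, against 231.3 and 268.3 CPM in PBS (log2 fold changes 1.79 and 1.98, limma adjusted p = 1.56e-06 and 8.58e-07). Fgf1, which S100A13 helps to release, had 1.05 and 1.15 CPM in I80 and 2.00 and 2.44 CPM in DI150, against 0.0752 and 0.404 CPM in PBS. It rose in I80 (1.15, limma adjusted p = 0.00438) and in DI150 (1.91, limma adjusted p = 0.000301). Syt1, a further part of the FGF1 release complex, had at most 5 reads in a library.

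Across 11 tested annexins, 2 rose and 7 fell in each line, with medians of -0.66 in I80 and -0.58 in DI150. Some annexins, Anxa2 and Anxa11 among them, are also counted among the partners above, so these lists overlap. Anxa8 had 0.741 and 1.11 CPM in I80 and 0.190 and 0.0382 CPM in DI150, against 57.7 and 132.3 CPM in PBS (log2 fold changes -5.96 and -7.17, limma adjusted p = 5.49e-06 and 1.84e-06). Anxa9 went the other way, with 22.3 and 25.2 CPM in I80 and 54.1 and 70.5 CPM in DI150, against 8.04 and 16.6 CPM in PBS (1.003 and 2.37, limma adjusted p = 0.0169 and 0.00022), and its I80 call was lost under 3 other settings. Myh10, the heavy chain of nonmuscle myosin IIB, had 0.390 and 0.247 CPM in I80 and 0 reads in DI150, against 266.8 and 222.1 CPM in PBS (limma adjusted p = 4.91e-08 and 2.48e-08). Its mean was at least 1901-fold lower in DI150 than in PBS, with 3 reads per DI150 library as the floor. The calcium channel gene Trpv6, whose protein is carried to the membrane by S100A10 and annexin A2, fell (log2 fold changes -3.68 in I80 and -4.92 in DI150, limma adjusted p = 2.11e-06 and 4.6e-07). Scn10a, the sodium channel that S100A10 helps to the membrane of sensory neurons, had 24.3 and 24.0 CPM in DI150, against 0 reads in PBS, at least 206.3-fold higher with a floor of 3 reads per PBS library, and 0 and 2 reads in I80.

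Receptors of released S100 proteins showed no common direction. Of 7 tested, 2 rose and 2 fell in I80 (median 0.15), and 2 rose and 1 fell in DI150 (median 0.020). Tlr4, a receptor of calprotectin, had 43.0 and 40.3 CPM in I80 and 37.5 and 39.4 CPM in DI150, against 32.6 and 44.1 CPM in PBS, and the groups overlapped (log2 fold changes 0.13 and 0.020, limma adjusted p = 0.415 and 0.907). Ager, which encodes RAGE, was under the filter at 0.412 to 0.687 CPM in all libraries. The adhesion receptor gene Alcam rose to 231.3 and 228.7 CPM in I80 and to 256.7 and 248.1 CPM in DI150, against 61.3 and 84.3 CPM in PBS (1.67 and 1.80, limma adjusted p = 2.18e-05 and 1.32e-05). Nptn, a receptor of S100A8, rose by 0.52 in I80 and 0.28 in DI150 on the log2 scale (limma adjusted p = 0.000311 and 0.00782), a call lost under 2 other settings in DI150. Cd14, the coreceptor of Tlr4, fell in I80 (-1.85, limma adjusted p = 1.1e-05) and so did Bsg (-0.48, limma adjusted p = 0.00129). Neither was called in DI150 (Cd14 -0.28, limma adjusted p = 0.0836, and Bsg -0.051, limma adjusted p = 0.599). Mcam fell in DI150 (-1.71, limma adjusted p = 0.00182) and had a log2 fold change of 0.15 in I80 (limma adjusted p = 0.689).

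Plasminogen activation is the extracellular reaction in which the S100A10 and annexin A2 complex takes part. Of 8 tested genes of the list, 3 rose and 4 fell in I80 (median -0.46), and 4 rose and 4 fell in DI150 (median -0.88). Plau, the urokinase that activates plasminogen, had 12.8 and 12.7 CPM in I80 and 2.66 and 2.29 CPM in DI150, against 99.6 and 116.6 CPM in PBS (log2 fold changes -3.03 and -5.19, limma adjusted p = 6.95e-07 and 5.73e-08). Plaur, the urokinase receptor, had 138.3 and 131 CPM in I80 and 359.7 and 324.1 CPM in DI150, against 71.0 and 58.3 CPM in PBS (1.06 and 2.40, limma adjusted p = 6.57e-05 and 8.18e-07). Plau and Plaur thus moved apart, and more so in DI150 than in I80. Serpine2, an inhibitor of urokinase, rose to 978.4 and 924.6 CPM in I80 and to 1131 and 998.9 CPM in DI150, against 161.3 and 230.6 CPM in PBS (2.30 and 2.46, limma adjusted p = 9.28e-06 and 6e-06). Plgrkt, a plasminogen receptor, rose in I80 (0.46, limma adjusted p = 0.00307), and its call in DI150 (0.25, limma adjusted p = 0.042) was lost under 8 other settings.

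Other EF-hand genes moved in both directions. Of 51 tested, 14 rose and 19 fell in I80 (median -0.11), and 21 rose and 16 fell in DI150 (median 0.026). Lcp1, the actin bundler plastin 2, had 25.7 and 27.8 CPM in I80 and 48.2 and 49.7 CPM in DI150, against 1.13 and 1.74 CPM in PBS (log2 fold changes 3.83 and 4.69, limma adjusted p = 7.55e-07 and 2.69e-07). The calpain gene Capn1 rose (1.88 in I80 and 1.79 in DI150, limma adjusted p = 2.19e-06 and 2.66e-06) while its relative Capn2 fell (-2.39 in I80 and -2.75 in DI150, limma adjusted p = 1.49e-07 and 6.54e-08). Gca, or grancalcin, rose in both lines (1.49 and 1.65, limma adjusted p = 2.76e-05 and 1.45e-05). Sparc, a secreted calcium-binding matrix protein, had 9.60 and 10.6 CPM in I80 and 0.381 and 0.191 CPM in DI150, against 171.8 and 169.9 CPM in PBS (-4.02 and -7.78, limma adjusted p = 3.98e-07 and 2.48e-08). The phospholipases C Plcd1 (-4.80 and -4.81, limma adjusted p = 8.66e-07 and 7.94e-07) and Plcd3 (-2.62 and -1.89, limma adjusted p = 8.97e-07 and 4.68e-06) fell in I80 and in DI150.

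For each tested S100 gene, the genes with the most similar pattern were found by the Euclidean distance of gene-centred log2(CPM + 0.5) over the 6 libraries, among 9819 genes averaging 5 CPM or more. The nearest to S100a11 was Zfp110 at a distance of 0.0665, followed by the basement membrane collagen Col4a1 and Cep170b. S100a6 was nearest to Herpud1 (0.132), Phc2 and Tmco4, and S100a10 to the ferritin heavy chain Fth1 (0.162), Ccni and Ssbp2. Fth1 had 1165 and 1174 CPM in I80 and 2366 and 1906 CPM in DI150, against 1085 and 1071 CPM in PBS, so that it was highest in DI150 like S100a10. S100a13 was nearest to Gtpbp2 (0.166), Tmem63b and Rab10os, and S100a1 to the lysosomal transcription factor gene Tfeb (0.184), Twist1 and Mpv17l. Tfeb had 11.5 and 11.3 CPM in I80 and 29.3 and 29.2 CPM in DI150, against 11.1 and 13.8 CPM in PBS. S100a1 and S100a13 were 0.687 apart, while S100a10 was closer to S100a1 (0.574) and to S100a13 (0.541). S100a4 was nearest to Klhl22 (0.290), Ccbe1 and Evc, which had at most 1 read in a treated library. S100a4 itself kept 115 to 176 reads in each treated library, so this closeness depends on the pseudocount of 0.5 CPM. S100a16 was nearest to Klhdc8a (0.304), Blnk and Timp3. S100a14 had the least close neighbours, with Wnt10a at 0.559, then Blnk and Acap1. Wnt10a had 1.09 and 0.989 CPM in I80 and 0.0952 and 0 CPM in DI150, against 166.9 and 152.7 CPM in PBS. The distances rest on 6 libraries of 3 groups and describe shared patterns in these libraries. For genes with few or no reads in the treated lines, the pseudocount sets much of the distance.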

How the data were processed

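RNA depleted of ribosomal RNA was sequenced as single 81-base reads from 2 libraries each of I80, DI150 and PBS cells, per the labels' protocols. The submitters' processing notes name STAR, with no version, and mm10. Which counter and annotation were used, and whether strand was, is not given in the sources used here. CPM values in 1 table, deposited by the authors, sum to 1000000 in each column. All 146724 values were whole multiples of the worth of 1 read within 1e-06, which gave whole reads (100% of values). Of 24454 gene numbers, 24374 (99.67%) matched RefSeq GRCm38.p6. A DI150 column numbered 3, a number no label carries, was used as a DI150 replicate by its group name.

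The test was limma 3.58.1 (R 4.3.3; lmFit, eBayes with a trend) on log2(CPM + 0.5) of the 11428 genes averaging 1 CPM or more, all 3 groups together (3 residual degrees of freedom, prior 4.52), two-sided, with Benjamini-Hochberg adjustment. A fold change on this scale understates the change of low genes, so folds are ratios of mean CPM. The script was tested on simulated data. Alternatives were pseudocounts of 0.1 and 2, no filter and a filter at 5 CPM, TMM and quantile scaling, robust variances, edgeR 4.0.16 and DESeq2 1.42.0 on the recovered reads, the 4 compared libraries alone, the replicate number as a block, and leaving out each library. The labels call the libraries biological duplicates without saying whether cultures were separate, so p-values reflect only the spread among these samples, which may be technical. Replicates differed beyond counting noise, at a chi-square of 4.63 per degree of freedom in I80, 10.1 in DI150 and 25.6 in PBS.

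The S100 genes and all gene lists were chosen with earlier results of these data known. Genes outside the set were named if paired with an S100 gene as a binding partner, or as up to 3 called genes a direction per list by size of log2 fold change among genes averaging 5 CPM or more. Folds against a group with 0 reads are lower bounds from 3 reads per library. Spliced lengths and shared 81-base windows come from GENCODE M21 transcripts, and promoters from RefSeq.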

Additional observations from a re-analysis of the deposited data

Results flagged for a closer look

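DI150 against I80 tests whether the change from PBS differs between the lines, and each gene here was called in that test. The S100 genes were selected on these values, so theirs are a description. On the log2 scale DI150 was above I80 by 1.39 for S100a1, 0.60 for S100a6, 0.85 for S100a10, 0.53 for S100a11 and 0.89 for S100a13, and S100a14 had a difference of -1.07. In each of these 6 genes both DI150 libraries lay on the same side of both I80 libraries, which adds nothing to calls made on the same libraries. The change of S100a6 was thus smaller in DI150 than in I80, and that of S100a14 larger.

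Among the annexins and partners the log2 differences of DI150 against I80 were -0.78 for Anxa2, -0.96 for Ahnak, -0.46 for Anxa1, 0.89 for Anxa11, 0.76 for Fgf1, 1.36 for Anxa9, -1.22 for Anxa8, -0.71 for Myh10, -1.24 for Trpv6, 1.06 for Dlc1 and 5.51 for Scn10a (limma adjusted p from 2.61e-06 to 0.0418). S100a10 and Anxa2 differed between the lines in opposite directions, and so did S100a11 and Anxa1. Calls of Anxa1, Anxa8, Anxa9, Fgf1 and Myh10 were lost under 2 to 9 other settings.

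Among receptors the differences were -0.24 for Nptn, 1.56 for Cd14, 0.43 for Bsg and -1.86 for Mcam, and in plasminogen activation 1.34 for Plaur and -2.15 for Plau (limma adjusted p from 3e-05 to 0.0226). Other EF-hand genes had 0.86 for Lcp1, -3.76 for Sparc, 0.73 for Plcd3 and -0.36 for Capn2, and the neighbours of the S100 genes 0.86 for Slc39a1, 0.25 for Chtop and 0.42 for Crtc2 (limma adjusted p from 5.69e-06 to 0.0464). Chtop lost its call under 9 other settings, Nptn under 4, Capn2 under 2, and Bsg and Crtc2 under 1 each.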

How the results depend on the processing

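Of 432 recomputed values of the S100 genes, 417 kept their direction and their side of the threshold. The 10 that changed direction were small and uncalled. In DI150 against I80, S100a16 was 0.044 with quantile normalization, 0.018 with the replicate block, 0.059 with edgeR and 0.094 with DESeq2, and -0.061 to 0.053 as single libraries were left out, where S100a4 ran over -0.31 to 0.0020. In I80 against PBS, S100a10 was -0.031 with quantile normalization and -0.017 to 0.079 with single libraries left out, and S100a13 ran over -0.47 to 0.012. Among other genes, leaving out single libraries gave -0.080 to 0.073 for Crtc2, -0.35 to 0.65 for Mcam and -0.082 to 0.35 for Tlr4 in I80, and -0.16 to 0.058 for Bsg, -0.053 to 0.13 for Slc39a1 and -0.20 to 0.23 for Tlr4 in DI150, each against PBS. Crtc2 in I80 was 0.041 with quantile normalization, and Bsg in DI150 was 0.023 with the replicate block. Of the recomputed values of genes outside the set, 1765 kept direction and side of the threshold, 88 lost a call and 4 gained one.

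In I80 against PBS, 1 S100 gene was called higher in place of 0 with no filter (S100a8) and with the 4 libraries compared (S100a11). Leaving out 1 library gave 0 to 1 higher and 4 to 5 lower, with S100a11 called without either DI150 library and S100a13 called lower without PBS replicate 1. In DI150 against PBS, no filter gave 5 higher in place of 4, where S100a8 entered, and leaving out 1 library gave 3 to 4, as S100a13 was lost without DI150 replicate 3. In DI150 against I80, 2 were called lower with no filter, where S100a8 entered. Since the S100 genes were selected on these values, these counts describe the fits and carry no p-values. No filter gave S100a8 log2 fold changes of 2.00 in I80 and 1.16 in DI150 against PBS. Over all genes of DI150 against I80, the replicate block gave 1361 higher and 1327 lower in place of 2503 and 2505. Setting DI150 replicate 3 as the second replicate in that block, a choice made after seeing the data, gave 2455 and 2448. Leaving out 1 library gave 1295 to 3008 higher and 1187 to 2965 lower. The lowest counts came without an I80 library, and the cause was not tested. The same-numbered libraries of I80 and PBS deviated together at r = 0.023 over genes. With the DI150 libraries, numbered 1 and 3, set against libraries 1 and 2, r was -0.055 for PBS and 0.21 for I80. The numbers were thus not taken as pairs. The replicate block left the counts of S100 genes as they were, at 0 and 4, 4 and 4, and 5 and 1. At 0 to 1 reads the depth sets only a lower limit on the change of S100a16, and 10 to 47 reads limit S100a8.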
